A study of Homo sapiens with 8 samples.

Results

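Footprints of ribosomes were compared directly between cells cultured in leucine-deficient medium (Leu-) and cells cultured in arginine-deficient medium (Arg-), both treated with cycloheximide, a drug that arrests elongating ribosomes. A gene entered the comparison when a transcript of it was listed in both libraries and its mean RPKM over the pair was at least 10, where RPKM counts the footprint reads within a coding sequence, divided by its length and by the library's total of such reads. For each gene the transcript with the highest value was used. Of the 12235 genes listed in any of the 8 libraries of the study, 6868 met this rule. The gene just inside the limit was TLE1, with a mean RPKM of 10.011, and the gene just outside was EP300, with 9.996. The difference was expressed as log2((RPKM Leu- + 1)/(RPKM Arg- + 1)), so that a value above 0 means a higher footprint density in Leu- and a value below 0 a higher density in Arg-. The added 1 makes differences of mRNAs with low values look smaller than they are.

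The cells were wild-type HEK293T, a line of human embryonic kidney origin with the SV40 large T antigen. All media were made from a custom DMEM without sulfur amino acids, histidine, leucine and arginine, with dialyzed serum, and the missing amino acids were added back except leucine in Leu-, arginine in Arg- or none in the sufficient medium (Suff). The records give the deprivation as over night, where the methods give a fixed number of hours, and libraries were made with cycloheximide pretreatment and, as a separate series, without it. Each condition had 1 library, which leaves every value without an error between replicates. No difference between the media was tested, and the spread between cultures is unknown. The study's text on profiling names Suff, Leu- and a methionine-deficient medium, so the Arg- libraries are known from the records alone, and whether they were made beside the others is not given in the sources used here.

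Cells sense a shortage of amino acids along 2 main routes. Uncharged tRNA activates the kinase GCN2, which phosphorylates eIF2, lowers general initiation and raises translation of ATF4, the transcription factor of the integrated stress response that turns on amino acid transporters, asparagine synthetase and tRNA synthetases. In the other route the kinase complex mTORC1 loses its activity, with leucine sensed through Sestrin2 and arginine through CASTOR1 and the lysosomal transporter SLC38A9, and mRNAs that begin with a terminal oligopyrimidine (TOP) tract, chiefly those of ribosomal proteins, are translated less. Footprint density depends on the amount of an mRNA and on the ribosomes per mRNA, and without matched RNA sequencing these cannot be told apart.

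The TOP tract and the DNA element bound by ATF4 are shown for mRNAs to which the results below return, as read from RefSeq sequences on GRCh38.p14. In the first set, the bases of a tract are in capitals. The tract was defined as a C at the annotated RefSeq start followed by at least 4 pyrimidines. The RefSeq start nearest to that of the transcript compared was used, and these starts can differ. Each line gives 5 bases before the annotated start and 20 from it. RPS21 (chr20:62387098-62387122, plus strand) and RPL36A (chrX:101391006-101391030, plus strand) were the ribosomal protein mRNAs that stood furthest towards Arg-. For both, the transcript compared starts outside the stretch shown, at chr20:62387297 for RPS21 and chrX:101390824 for RPL36A. RPS6 (chr9:19380217-19380241, minus strand) had a ratio of -0.79, and FAU (chr11:65122115-65122139, minus strand) and RPLP1 (chr15:69452813-69452837, plus strand) stood towards Leu-.
RPS21: tgcttCCTTTCTCTCTCgcgcgcgg
RPL36A: ggtttCTTTCTTTCCgcgccgatag
RPS6: tggccCTCTTTTCCgtggcgcctcg
FAU: tcttcCTCTTTCTCgactccatctt
RPLP1: gagagCCCCTTTCCTCagctgccgc
The tracts shown had 12 bases in RPS21, 10 in RPL36A, 9 in RPS6, 9 in FAU and 11 in RPLP1. Others read but not shown were RPL37A (ratio -1.07) with 6 bases, RPS18 (-0.94) with 9 and RPS24 (-1.04) with 14.

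In the second set, capitals mark the 8 letters TGATGNAA, or the same letters read on the other strand, searched on both strands from 250 bases before to 50 bases after the annotated start. These are stress response genes in which the element was found: ASNS (chr7:97872458-97872487, minus strand), SLC7A1 (chr13:29595663-29595692, minus strand), AARS1 (chr16:70289675-70289704, minus strand) and PPP1R15B (chr1:204412026-204412055, minus strand).
ASNS: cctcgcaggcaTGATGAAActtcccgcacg
SLC7A1: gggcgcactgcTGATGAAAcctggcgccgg
AARS1: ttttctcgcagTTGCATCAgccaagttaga
PPP1R15B: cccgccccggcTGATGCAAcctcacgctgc
The first 3 genes had higher footprint density in Arg-, and the last had a log2 ratio of 0.23. The match is a description of letters and not of a bound site.

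The Leu- library held 6434043 reads on coding sequences over 8906 genes, and the Arg- library 5010210 reads over 8031 genes, as recovered from the whole steps of the RPKM values. In both, the least covered transcript had 64 reads. The 50 highest mRNAs took 31.0% of the summed RPKM in Leu- and 37.5% in Arg-, so that the values of all other mRNAs share a smaller remainder in Arg-. Of 10 genes taken as marks of HEK293 cells, 7 were listed in each library, while none of 10 marker genes of liver, blood, fibroblast, endothelial or muscle cells was listed in either.

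Both libraries ranked mRNAs alike, with a Spearman rho of 0.92 across the 6868 mRNAs and a Pearson r of 0.95 on the log2 scale (across genes, which are not replicates). The log2 ratio had a median of 0.13, quartiles of -0.27 and 0.49, a 5% to 95% range of -0.94 to 1.01 and an SD over mRNAs of 0.59. Its whole range was -2.32 to 3.25, and the upper end belonged to CIAO2B, an iron-sulfur assembly factor whose highest transcript differed between the libraries. At least 2-fold higher density in Leu- was seen for 357 mRNAs (5.2% of 6868) and in Arg- for 285 (4.15%), while 90.7% lay within 2-fold. More mRNAs were above 0 (59.3%) than below it (40.7%). RPKM is a share of the reads of each library, so the zero of the ratio is itself relative. When each ratio was taken against the median of 0.13, 215 mRNAs were at least 2-fold higher in Leu- and 415 in Arg-, so that Leu- held 34.1% of the 2-fold differences instead of 55.6%. The direction of the excess therefore turned with the centring. It also turned when at least 2 times 64 reads were required in both libraries, with 208 mRNAs higher in Leu- and 231 in Arg-. The group medians below are given both ways. Counts past 2-fold in the gene lists are to be read beside the 5.2% and 4.15% of all mRNAs.

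**Figure D1:**
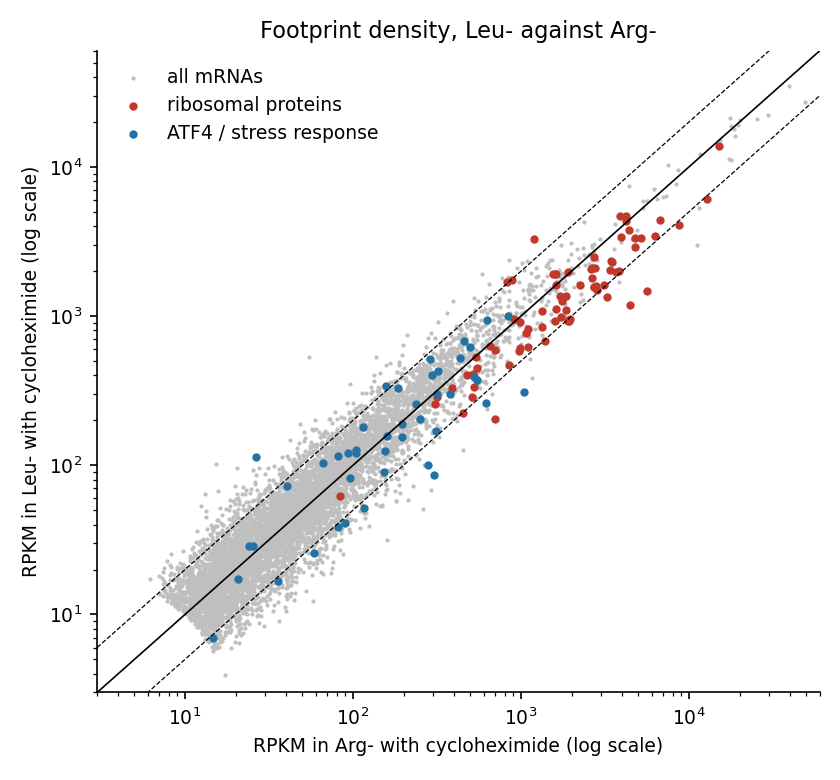
Footprint density of 6868 mRNAs in Arg- (x axis) and Leu- (y axis) with cycloheximide, as RPKM on log scales, 1 library each. Points are mRNAs, the solid line marks equal values and the dashed lines 2-fold differences. Most ribosomal protein mRNAs (red) lie below the solid line, and mRNAs of the stress response (blue) lie on both sides.

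The transporters and enzymes that handle leucine did not move together. Of 22 measured mRNAs of this list, 9 were higher in Leu- and 13 in Arg-, with a median log2 ratio of -0.04 (-0.17 against the median of all mRNAs). None was at least 2-fold higher in Leu- and 2 were at least 2-fold higher in Arg-, where 5.2% and 4.15% of all mRNAs were. Without cycloheximide the list leaned the other way, with 16 of 21 mRNAs higher in Leu- and a median of 0.33. SLC7A5, the light chain of the LAT1 exchanger that imports leucine, had an RPKM of 329 in Leu-, 186 in Arg- and 224 in Suff. Its partner SLC3A2, the heavy chain that carries LAT1 and other transporters to the membrane, had 169 in Leu-, 310 in Arg- and 35.7 in Suff. The 2 chains of the exchanger thus differed in opposite directions, by a log2 ratio of 0.82 (95% counting interval 0.73 to 0.91) for SLC7A5 and of -0.87 (-0.96 to -0.79) for SLC3A2. These intervals come from the recovered reads of the pair of libraries and cover counting error only, since PCR copies are not independent molecules. LARS1, which charges tRNA with leucine, had 31.3 in Leu-, 67.8 in Arg- and 12.95 in Suff, a log2 ratio of -1.09 (-1.25 to -0.98). SESN2, the leucine sensor Sestrin2 and itself an ATF4 target, had nearly equal densities of 157 in Leu- and 158 in Arg-, both above the 20.1 in Suff. BCAT1, which transaminates leucine in the cytosol, was also similar, at 173 in Leu- and 164 in Arg-. DBT, a core subunit of the branched-chain ketoacid dehydrogenase that commits leucine to breakdown, had 30.1 in Leu- and 57.3 in Arg-.

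The list for arginine handling was split in the same way, with 14 of 28 measured mRNAs higher in each library, a median of -0.18 (-0.31 against the median of all) and 2 past 2-fold in each direction. Its sign depended on the limit, since the median was 0.09 at a minimum mean RPKM of 50, and without cycloheximide it was 0.01. SLC7A1, the main cationic amino acid transporter of many cells and the importer of arginine, had 52.0 in Leu-, 117 in Arg- and 13.9 in Suff, a log2 ratio of -1.16 (-1.31 to -1.03). RARS1, which charges tRNA with arginine, had 60.5 in Leu-, 101 in Arg- and 23.3 in Suff. ALDH18A1, the first enzyme of proline and ornithine synthesis from glutamate, had 25.7 in Leu- and 58.3 in Arg-. These 3 were higher in both deficient libraries than in Suff and highest in Arg-. The opposite ratio was found for PYCR3, the cytosolic enzyme that makes proline, at 94.9 in Leu- and 36.3 in Arg-, and for GAMT, the last enzyme of creatine synthesis, at 48.0 and 19.8. In Suff, PYCR3 had 112 and GAMT 90.5, so that Arg- was the lowest of the 3 libraries for both. ASS1, which makes argininosuccinate in the route that regenerates arginine, differed little, with 60.5 in Leu- and 53.5 in Arg-, as did ARG2, the mitochondrial arginase, with 44.8 and 44.5. SLC38A9, the lysosomal arginine sensor, had 12.5 in Leu- and 20.2 in Arg-, and the sensor CASTOR1 was not listed in either library.

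Of 26 measured mRNAs of the mTORC1 pathway, 14 were higher in Leu- and 12 in Arg-, with a median of 0.07 (-0.06 against the median of all). Those past 2-fold in Leu- were LAMTOR3 and LAMTOR5, subunits of the Ragulator complex that anchors the Rag GTPases to the lysosome, and SEH1L, shared by the GATOR2 complex and the nuclear pore. LAMTOR3 had 305 in Leu- and 127.7 in Arg-, LAMTOR5 had 364 and 166, and SEH1L had 145 and 71.5. The single one past 2-fold in Arg- was NPRL2, a subunit of the inhibitory GATOR1 complex, with 47.6 in Leu- and 116 in Arg-, which rested on 80 and 152 reads. EIF4EBP1, the translational repressor that mTORC1 phosphorylates, had 947 in Leu-, 630 in Arg- and 780 in Suff. MTOR itself was listed at 3.54 and 4.46, under the limit on the mean, and was not compared.

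The stress response differed by gene rather than as a block. Of 44 measured mRNAs of the stress response list, which holds ATF4, targets of it and related genes such as PPP1R15B, 21 were higher in Leu- and 23 in Arg-. Their median was -0.03 (-0.16 against the median of all). Against Suff the same mRNAs stood apart in both libraries, with a median log2 ratio of 1.63 for Leu- and 1.90 for Arg-, and 29 of the 33 listed in Suff were higher in both deficient libraries than in Suff, where 37.8% of all 5055 mRNAs listed in the 3 libraries were. These ratios to Suff share the Suff library. ATF4 (chr22:39520564-39522683) had 342 in Leu-, 157 in Arg- and 76.0 in Suff, a log2 ratio of 1.12 (1.01 to 1.24). DDIT3, the proapoptotic factor CHOP that ATF4 turns on, had 103 in Leu- and 66.2 in Arg- and was not listed in Suff. CEBPG, a dimer partner of ATF4 that was picked here after its value was seen, had 514 in Leu-, 288 in Arg- and 196 in Suff. BBC3, the BH3-only killer PUMA, had the highest ratio of the list at 2.05 (1.74 to 2.46), with 113 in Leu- and 26.5 in Arg-, the latter from 77 reads. These 4 were higher in Leu-, and ATF3 (chr1:212608761-212620775), a stress-induced repressor of the same family as ATF4, was higher in Arg-, with 310 in Leu-, 1045 in Arg- and 68.3 in Suff, a log2 ratio of -1.75 (-1.85 to -1.65).

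Other genes of the list, which import or make amino acids, went in either direction. ASNS (chr7:97852118-97872542), asparagine synthetase, had 262 in Leu-, 618 in Arg- and 22.3 in Suff, a log2 ratio of -1.23 (-1.30 to -1.17). SLC38A2 (chr12:46358188-46372773), the SNAT2 transporter of small neutral amino acids, had 85.7 in Leu-, 302 in Arg- and 31.9 in Suff, a log2 ratio of -1.81 (-1.93 to -1.70). Both stood above Suff in each deficient library, with Arg- the higher. SLC7A11, the cystine importer, had 41.1 in Leu- and 89.0 in Arg-, and CTH, which makes cysteine from cystathionine, had 99.9 and 278; neither was listed in Suff. The serine pathway enzyme PSAT1 was slightly higher in Leu-, with 1006 in Leu-, 838 in Arg- and 125 in Suff. Small differences towards Leu- were also measured for DDIT4, an inhibitor of mTORC1, at 622 against 499, for STC2, a secreted glycoprotein, at 429 against 322, and for TRIB3, a pseudokinase that restrains ATF4, at 127 against 104. Without cycloheximide DDIT4 (-0.19) and TRIB3 (-0.37) had the opposite sign, while STC2 had a ratio of 0.17. In all, 9 mRNAs of the list were at least 2-fold higher in Arg- and 2 in Leu-, namely ATF4 and BBC3. Of all mRNAs 4.15% and 5.2% were, and the count in Leu- was near that share. The letters TGATGNAA were found near the start in 7 of the 34 stress response genes with a RefSeq promoter (20.6%) and in 87 of the 5577 compared genes with one (1.56%). Those 7 had a median ratio of -0.76 with 6 below 0, and the other 27 of the list a median of 0.17. AARS1, GARS1 and NARS1 of those 7 are tRNA synthetases, a group mostly higher in Arg- with cycloheximide, as described below. Without cycloheximide the same 7 had a median of -0.17 with 4 below 0. The 80 genes with these letters outside the list had a median of 0.01 with 40 below 0. CHAC1, VEGFA and MYC were not listed in either library.

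**Figure D2:**
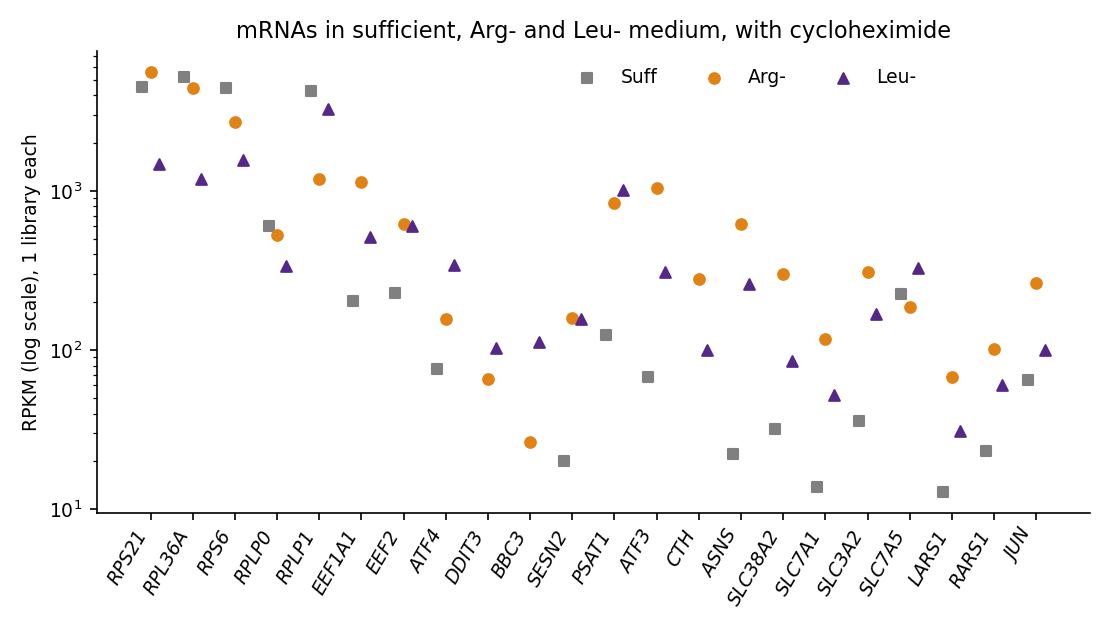
RPKM of 22 named mRNAs in Suff (squares), Arg- (circles) and Leu- (triangles) with cycloheximide, on a log scale, 1 library each; a missing square means that the mRNA was not listed in Suff. ATF4 and BBC3 are highest in Leu-, ATF3, ASNS and SLC38A2 are highest in Arg-, and RPS6 steps down from Suff to Arg- to Leu-.

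The cytosolic tRNA synthetases and their scaffold proteins were nearly all higher in Arg-. Of 21 measured mRNAs, 19 were higher in Arg- and 2 in Leu-, against 40.7% of all mRNAs that were below 0. The median ratio was -0.56 (-0.68 against the median of all), and 20 of the 21 lay below the median of all mRNAs. The RPKM over the list ran from 23.6 to 482 in Leu-, with a median of 120, and from 41.8 to 682 in Arg-, with a median of 165. Of the 20 listed in Suff, 19 were higher in both deficient libraries than in Suff. Besides LARS1, the lowest ratios were those of AARS1, for alanine, with 38.6 in Leu-, 81.9 in Arg- and 12.5 in Suff, of MARS1, for methionine, with 116, 212 and 28.6, and of VARS1, for valine, with 23.6, 41.8 and 12.7. The members higher in Leu- were WARS1 and HARS1, for tryptophan and histidine, named after their values were seen, with ratios of 0.12 and 0.56. Several of these mRNAs also stand in the stress response list. With cycloheximide the ratio of the leucine enzyme was thus not of the opposite sign to that of the arginine enzyme. Without it the signs were opposite, with ratios of -0.35 for LARS1 and 0.10 for RARS1 (106 in Leu- and 98.9 in Arg-).

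Ribosomal protein mRNAs were mostly lower in Leu- than in Arg-. For the small (40S) subunit, 27 of 32 mRNAs were higher in Arg- and 5 in Leu-, with a median ratio of -0.52 (-0.65 against the median of all). For the large (60S) subunit, 36 of 43 were higher in Arg- and 7 in Leu-, with a median of -0.51 (-0.64). Past 2-fold there were 4 of the 40S and 7 of the 60S mRNAs in Arg-, and 0 and 2 in Leu-. Of all mRNAs 4.15% were past 2-fold in Arg- and 5.2% in Leu-. The median RPKM of the 40S mRNAs was 1577 in Leu-, 1824 in Arg- and 3695 in Suff, and that of the 60S mRNAs 1350, 1860 and 2980. The order Suff over Arg- over Leu- was found for 24 of the 32 and 31 of the 43, and for 8.33% of the 5055 mRNAs listed in the 3 libraries. Footprints that map to several copies were discarded, and ribosomal proteins have many processed pseudogenes, so single values of this group are uncertain.

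RPS6, the 40S protein phosphorylated downstream of mTORC1, had 1559 in Leu-, 2705 in Arg- and 4415 in Suff, a log2 ratio of -0.79 (-0.84 to -0.75). RPLP0, a protein of the ribosomal stalk, had 336, 526 and 599 in the same order. RPS21 (chr20:62387297-62388520) had the lowest ratio of the group, with 1466 in Leu-, 5604 in Arg- and 4474 in Suff, followed by RPL36A with 1188, 4430 and 5210. In these 2 the Arg- value was close to or above Suff and Leu- alone was low. RPL5, which carries 5S rRNA into the ribosome, had 1350 in Leu-, 3248 in Arg- and 1522 in Suff, so that Arg- was the one that stood apart. The main exception was RPLP1, another stalk protein, with 3271 in Leu-, 1195 in Arg- and 4267 in Suff, a log2 ratio of 1.45 (1.38 to 1.52). RPL15 and FAU, picked after their values were seen, also had ratios of 1.02 and 0.99.

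A tract at the annotated start was found for 42 of 59 ribosomal protein mRNAs with a RefSeq promoter (71.2%) and for 375 of the 5577 compared mRNAs with one (6.72%). Ribosomal protein mRNAs with the tract had a median ratio of -0.45, and the 17 without it at that position -0.56. The 333 other mRNAs with such letters had a median of 0.05, near the 0.12 of all with a promoter. The annotated start can differ from the one used in these cells and from that of the transcript compared. Both RPS21 and RPLP1 hold a tract at the RefSeq start, but the RPS21 transcript compared starts elsewhere.

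Translation factors and other known TOP mRNAs were also lower in Leu-. Of 20, 16 were higher in Arg- and 4 in Leu-, with a median of -0.41 (-0.54 against the median of all). EEF1A1, the elongation factor that delivers aminoacyl-tRNA, had 514 in Leu-, 1135 in Arg- and 203 in Suff, a log2 ratio of -1.14 (-1.20 to -1.09). EEF2, the translocation factor, had 606 in Leu-, 616 in Arg- and 230 in Suff and did not differ beyond counting error, at -0.02 (-0.07 to 0.02). RACK1, a scaffold on the 40S subunit, had 1235, 2231 and 1025. Unlike ribosomal proteins, 14 of these 20 were higher in both deficient libraries than in Suff, where 0 of 32 and 1 of 43 ribosomal protein mRNAs were, and 1 followed the order Suff over Arg- over Leu-. Initiation and elongation factors outside the TOP list had a median of -0.22 (-0.35 against the median of all) over 34 mRNAs, with 22 higher in Arg-. Ribosome biogenesis factors, which assemble the subunits in the nucleolus, had a median of -0.41 (-0.54) over 44 mRNAs, with 31 higher in Arg-. Past 2-fold there were 5 of them, among them UTP15, RRN3, NAT10 and NOP58, where 4.15% of all mRNAs were. NOP58, a core protein of box C/D snoRNPs, had 74.0 in Leu-, 188 in Arg- and 37.7 in Suff.

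**Figure D3:**
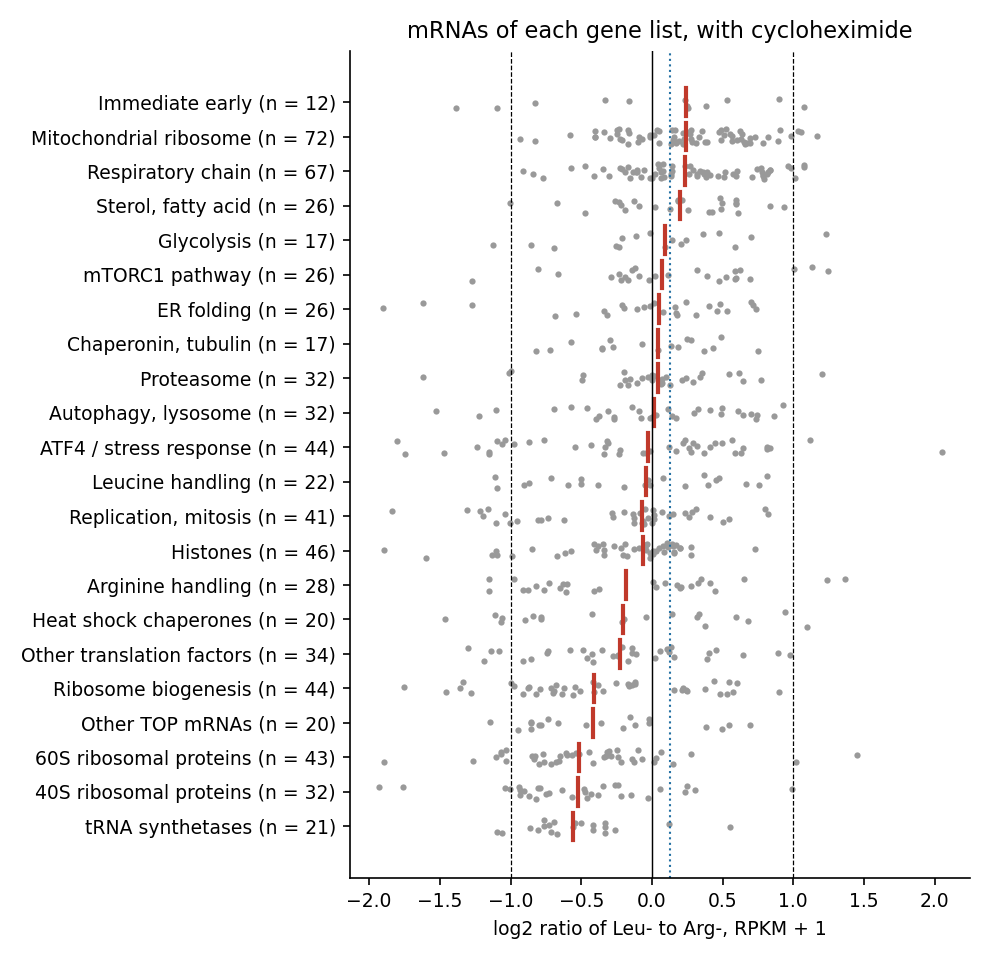
Log2 ratio of Leu- to Arg- with cycloheximide for the mRNAs of 22 gene lists. Points are mRNAs, red bars the median of each list, the dotted line the median of all 6868 mRNAs (0.13) and the dashed lines 2-fold differences. The medians of tRNA synthetases (-0.56), 40S (-0.52) and 60S (-0.51) ribosomal proteins are the lowest, and those of mitochondrial ribosomal proteins and immediate early genes (both 0.24) the highest.

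Mitochondrial ribosomal proteins and subunits of the respiratory chain were on the other side. Of 72 mitochondrial ribosomal protein mRNAs, 51 were higher in Leu- (59.3% of all mRNAs were), with a median of 0.24, which is 0.12 against the median of all. Of 67 nuclear-encoded respiratory chain mRNAs, 46 were higher in Leu-, with a median of 0.23 (0.11). Without cycloheximide the mitochondrial ribosomal proteins were split, with 36 higher in Leu- and 35 in Arg- and a median of 0.01, while 50 of 64 respiratory chain mRNAs were higher in Leu-, with a median of 0.25. Their median coding lengths were 585 and 400.5 nucleotides, and mRNAs of the shortest length class described below, ribosomal proteins aside, had a median of 0.33 with the drug. How much of their ratio goes with length was not tested. Each list had 3 mRNAs past 2-fold in Leu- and 0 in Arg-, where 5.2% and 4.15% of all mRNAs were. The counts in Leu- were thus near the share of all mRNAs. MRPS26, a protein of the small mitochondrial subunit, had 313 in Leu-, 138 in Arg- and 750 in Suff. NDUFA5, of complex I, had 414, 196 and 304, and ATP5F1D, of the ATP synthase, had 555, 263 and 1435. The cytosolic and the mitochondrial ribosome thus had medians of opposite sign with cycloheximide, as reported and against the median of all.

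Several chaperones of the endoplasmic reticulum had much higher density in Arg-. HSPA5, the chaperone BiP, had 19.1 in Leu-, 74.2 in Arg- and 35.04 in Suff, a log2 ratio of -1.90 (-2.17 to -1.75). HSP90B1, its partner GRP94, had 73.0, 226 and 50.1, and HYOU1, an HSP70-type chaperone of the same compartment, 27.5, 68.1 and 20.6. Without cycloheximide the ratios were -1.01 for HSPA5, -0.34 for HSP90B1 and -0.36 for HYOU1. Their coding lengths were 1962, 2409 and 2997 nucleotides, and long mRNAs leaned towards Arg- with the drug, as described below. How much of their ratio goes with length was not tested. The list of 26 mRNAs as a whole had a median of 0.05 (-0.08 against the median of all) with 3 past 2-fold, all of them towards Arg-, and PDIA6, a disulfide isomerase, had 559 in Leu- and 336 in Arg-. Among 20 cytosolic and mitochondrial heat shock chaperones, 12 were higher in Arg-, with a median of -0.20 (-0.33). HSPA4, an HSP110-type exchange factor, had 53.1 in Leu- and 148 in Arg-, and HSPA9, the mitochondrial HSP70, had 143 and 300. HSPB1, a small heat shock protein, went the other way, with 121 and 55.8. Without cycloheximide the ratio was -0.52 for HSPA4, 0.17 for HSPA9 and 0.36 for HSPB1.

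Genes of replication and mitosis had a median of -0.07 (-0.20 against the median of all) over 41 mRNAs, with 8 past 2-fold in Arg- and 0 in Leu-, where 4.15% and 5.2% of all mRNAs were. Without cycloheximide the median was 0.22, with 26 of 40 higher in Leu-. MCM4, of the replicative helicase, had 58.7 in Leu-, 212 in Arg- and 35.2 in Suff, and CDC6, which loads that helicase, had 47.7, 120 and 15.3. Replication-dependent histone mRNAs, among the highest of all, had a median RPKM of 4730 in Leu-, 5325 in Arg- and 4061 in Suff. Their median ratio was -0.07 (-0.19) over 46 mRNAs, with 28 higher in Arg- and 5 past 2-fold there, such as H4C11 with 3000 in Leu- and 11158 in Arg-. Footprints in sequence that near-identical histone genes share were discarded, so these values are uncertain as well.

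Of the immediate early genes, 12 were measured, 7 of them higher in Leu-, with a median of 0.24 (0.11 against the median of all), which was -0.25 at a minimum mean RPKM of 50. JUN, a subunit of AP-1, had 101 in Leu-, 265 in Arg- and 64.9 in Suff, a log2 ratio of -1.39 (-1.53 to -1.26). SRF, the serum response factor, had 46.5, 24.5 and 93.8. Smaller medians were found for glycolysis and hypoxia genes (0.09 over 17), sterol and fatty acid synthesis (0.20 over 26), proteasome subunits (0.04 over 32), autophagy and lysosome genes (0.02 over 32), and chaperonin and tubulin genes (0.04 over 17). Against the median of all mRNAs these medians were -0.03 for glycolysis, 0.07 for sterol synthesis, -0.09 for the proteasome, -0.11 for autophagy and the lysosome and -0.08 for chaperonin and tubulin, so that the sign turned with the centring for every one of these lists but sterol synthesis. Single members still differed, such as POMP, the proteasome assembly chaperone, with 1268 in Leu- and 551 in Arg-, PSMD12, a lid subunit, with 57.7 and 180, and NDRG1, a stress-responsive gene, with 56.9 and 23.6.

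The 10 mRNAs with the highest ratios, among those with at least 2 times the 64-read limit in each library, were VMA21, RCOR2, MZT2A, SPNS1, MZT2B, UBE2B, SRSF1, CDKN2A, CSK and SRSF7, with ratios from 1.67 to 1.96. VMA21, an assembly factor of the vacuolar ATPase, had 535 in Leu-, 137 in Arg- and 531 in Suff. MZT2B, a small protein of the gamma-tubulin ring complex, had 741, 209 and 1002. For both, Arg- was the library that stood apart from Suff. The splicing factors SRSF1 and SRSF7 had 1905 and 1257 in Leu-, 587 and 394 in Arg-, and 1321 and 449 in Suff. RCOR2, a corepressor, was highest in Leu-, with 190, 48.2 and 30.9. MZT2A and MZT2B are close copies, and footprints in sequence they share were discarded, so their values are uncertain. Without cycloheximide the ratio was -0.51 for SPNS1, -0.15 for MZT2B and -0.09 for UBE2B. It was 0.29 for VMA21, 0.85 for RCOR2, 0.10 for MZT2A, 0.52 for SRSF1, 1.74 for CSK and 0.55 for SRSF7. CDKN2A had no value there.

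The 10 with the lowest ratios were BOK, CTNNB1, TTC26, PARP1, RPS21, HSPA5, RPL36A, H4C11, MCM4 and PLS3, from -2.32 to -1.83. BOK (chr2:241558745-241574131), a member of the BCL2 family, had 51.1 in Leu-, 260 in Arg- and 55.3 in Suff. CTNNB1 (chr3:41199505-41240443), beta-catenin, had 31.6, 159 and 32.8. PARP1, a sensor of DNA breaks, had 68.7, 292 and 51.0. In these 3, Leu- was near Suff and Arg- was higher than both. Without cycloheximide the ratio was 0.10 for BOK, with 20.9 in Leu- and 19.4 in Arg-, and 0.35 for PLS3. It was -0.71 for CTNNB1, -0.36 for TTC26, -0.39 for PARP1, -1.11 for RPS21, -1.01 for HSPA5, -0.62 for RPL36A, -0.48 for H4C11 and -0.67 for MCM4. Over all 285 mRNAs at least 2-fold higher in Arg-, the 145 listed in Suff had a median log2 ratio to Suff of 0.40 in Leu- and 1.67 in Arg-. Of the 357 at least 2-fold higher in Leu-, 334 were listed in Suff, with medians of -0.13 in Leu- and -1.33 in Arg-. In both groups Arg- was thus further from Suff than Leu- was. The ratios to Suff also went with coding length, at a Spearman rho of 0.44 for Leu- and 0.49 for Arg- (across genes). These groups differ in length, as described below, and how much of their ratios to Suff goes with length was not tested. Over the 5055 mRNAs listed in all 3 libraries these medians were 0.07 and -0.22. The Suff library was the shallowest of the 3, with 2560280 reads, and an mRNA low in it may not be listed.

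Coding length went with the ratio. The 2-fold group of Leu- had a median coding length of 786 nucleotides and that of Arg- 2151, against 1182 for all compared mRNAs, and the share of G or C at the last base of codons (GC3) was 69.9%, 44.6% and 56% (medians). Across 6640 mRNAs with a coding sequence in GENCODE, the Spearman rho of the ratio was -0.36 with coding length and 0.27 with GC3 (across genes, which are not replicates). In 5 classes of coding length of equal size, from shortest to longest, the median ratio was 0.31, 0.34, 0.17, -0.02 and -0.26. Of the shortest class (75 to 633 nucleotides), 139 mRNAs were at least 2-fold higher in Leu- and 21 in Arg-, and of the longest (1968 to 9690 nucleotides) 17 and 152. Ribosomal protein mRNAs lay off this relation. In that class, the 59 ribosomal protein mRNAs had a median of -0.48, and the others 0.33. The tRNA synthetases, by contrast, had a median coding length of 1821 nucleotides and the biogenesis factors 1668, and how much of their ratio goes with length was not tested. The comparisons of gene lists with Suff share this limit, since the ratios to Suff went with length too.

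**Figure D4:**
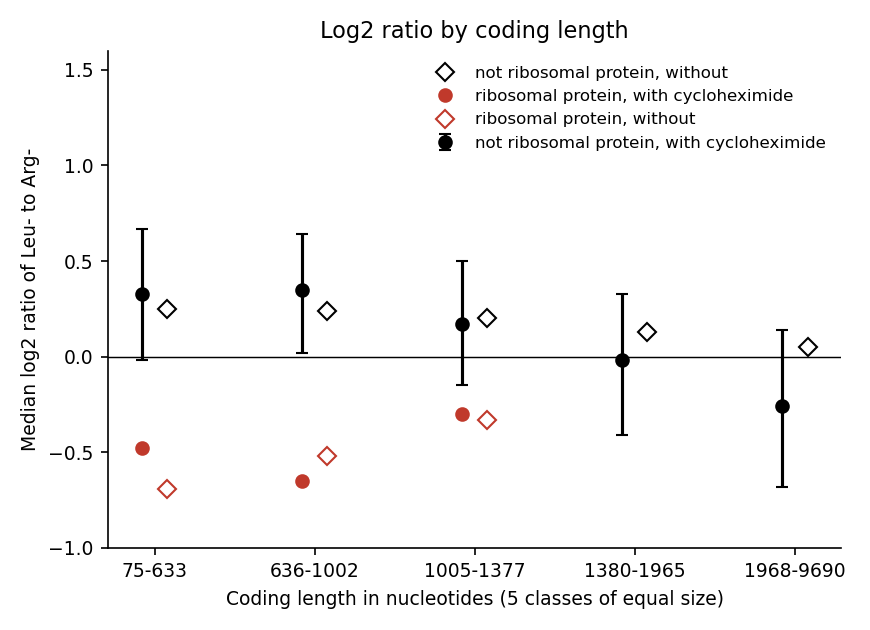
Median log2 ratio of Leu- to Arg- in 5 classes of coding length, with cycloheximide (filled circles) and without (open diamonds). Bars on the black circles reach to the quartiles of all mRNAs of a class with cycloheximide, ribosomal proteins included. Black is for all other mRNAs and red for ribosomal proteins, of which there were 59, 13 and 2 in the first 3 classes. With cycloheximide the black medians go from 0.33 to -0.26, and the red ones lie below 0.

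The content of the missing amino acids went little with the ratio. The rho with the share of arginine in the protein was 0.09 and with that of leucine 0.00, and with methionine, present in both media, -0.04. In the lowest and the highest of 5 classes of arginine share the median ratio was 0.12 and 0.24, and of leucine share 0.15 and 0.15. Single codons differed in sign within the same amino acid. Among arginine codons the rho was 0.20 for CGG, 0.15 for CGC and -0.18 for AGA, and among leucine codons 0.20 for CTG, -0.21 for TTA and -0.26 for CTT. Over the 12 codons of both amino acids, the rho ranged from -0.26 to -0.08 for those that end in A or T and from -0.20 (TTG) to 0.20 for those that end in G or C.

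The series without cycloheximide held another pair of libraries, with 1496852 reads in Leu- and 1610707 in Arg-, listed down to 5 reads. Here 7705 genes met the same rule, of which 274 (3.56%) were at least 2-fold higher in Leu- and 93 (1.21%) in Arg-, with 63.6% above 0 and 36.4% below. The files of both series differ in more than the drug. The coding length behind RPKM left out the stop codon in one and held it in the other, a difference that both libraries of a pair share. File records speak of duplicate removal in the series without cycloheximide only, and the listing limit was 5 reads there against 64. Drug and processing therefore cannot be told apart. Of the compared mRNAs, 6570 had a value there, with a Spearman rho of 0.41 and a Pearson r of 0.42 between the ratios (across genes). Of the 357 mRNAs at least 2-fold higher in Leu-, 345 had a value, 280 of them above 0 (81.2%, where 64.4% of all were), with a median of 0.47. Of the 285 higher in Arg-, 273 had a value, 229 of them below 0 (83.9%, where 35.6% of all were), with a median of -0.31. Past 2-fold the same way in both series were 48 and 14 mRNAs, and past 2-fold the opposite way 0 and 1. Both groups were set by their size with the drug, so smaller sizes in the other series say nothing by themselves.

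Ribosomal proteins had the same direction in both series. Without cycloheximide 29 of 30 mRNAs of the 40S and 40 of 42 of the 60S subunit were higher in Arg-, with medians of -0.68 and -0.62. RPS6 had 1812 in Leu- and 3373 in Arg-, a ratio of -0.90. For the tRNA synthetases the direction was not shared, with 11 of 21 higher in Arg- and a median of -0.02, and the ribosome biogenesis factors had a median of -0.01. The histones were at -0.84 with all 43 measured mRNAs higher in Arg-, where the median with cycloheximide was -0.07. Of single genes, ATF4 had 1098 in Leu- and 700 in Arg- without the drug (0.65), ATF3 228 and 434 (-0.93), JUN 237 and 638 (-1.42), and CSK, a kinase that inhibits SRC, 84.9 and 24.8 (1.74). These kept their direction. ASNS had 607 and 689 (-0.18), SLC7A1 145 and 170 (-0.23) and LARS1 75.9 and 97.2 (-0.35), the same sign with a smaller size. SLC38A2 had 239 and 193 (0.30), and EIF4EBP1 664 and 1127 (-0.76), the opposite sign.

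The relation with coding length was weaker without cycloheximide, at a rho of -0.15 over 6443 mRNAs. That with GC3 was -0.15, where it was 0.27 with the drug, and that with the arginine share -0.15, where it was 0.09. Codon relations changed sign as well, such as CGC at -0.23 and AGA at 0.10, except that of CGT, at -0.11 with the drug and -0.08 without. The gap between ribosomal proteins and other short mRNAs was present in both series, at -0.69 and 0.25 in the shortest class without the drug.

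**Figure D5:**
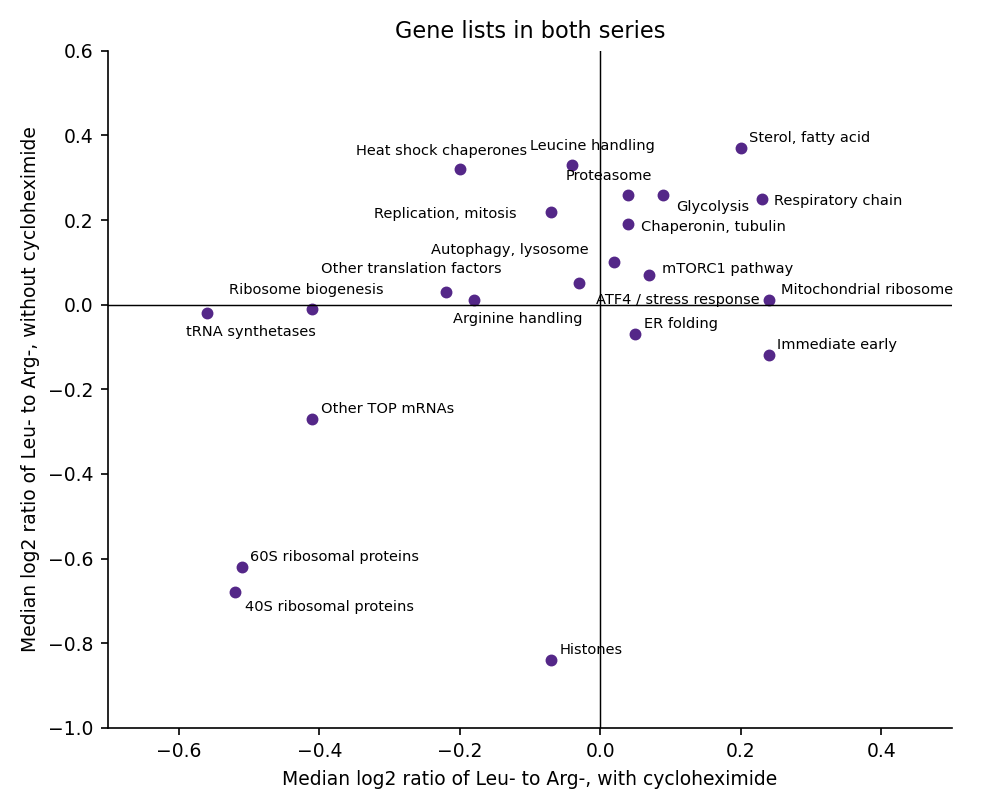
Median log2 ratio of Leu- to Arg- for 22 gene lists with cycloheximide (x axis) and without (y axis), 1 library per condition. Each point is a list. The 40S and 60S ribosomal proteins lie far below 0 on both axes, the tRNA synthetases (-0.56 and -0.02) on one, and the histones (-0.07 and -0.84) mainly on the other.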

How the data were processed

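Ribosome profiling libraries of HEK293T cells were made from pooled gradient fractions digested with RNase I. The authors trimmed adaptors and low-quality ends, kept reads by length, aligned them by Bowtie to human transcripts (GRCh38), allowing no mismatch, and used reads with a unique position; the submitters' processing notes also name cutadapt. They deposited RPKM per Ensembl transcript, without counts or positions. File records, and not the methods, speak of duplicate removal in the series without cycloheximide only.

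Transcripts were matched to GENCODE release 44 (97.1% in both libraries compared). Reads were recovered where RPKM times coding length gave a whole number within 0.01 of a step, which held for 97.4% of matched transcripts in Leu- and 97.3% in Arg-. For 6845 of 6868 genes the same transcript was used in both libraries. Ratios used a pseudocount of 1. With 1 library per condition nothing was tested, and lists are described by counts and medians. Intervals are exact binomial (Clopper-Pearson, 95%) on the recovered reads of a pair.

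The members and the 24 gene lists were chosen with earlier results of these data known. Named genes are 33 fixed genes, the 10 highest and 10 lowest ratios where both libraries had an RPKM of 10 or more, at least 2 times the 64-read limit and the same transcript, and up to 4 members of each list with the greatest ratio in size; 1 gene so chosen is not reported here. Alternatives were a pseudocount of 0.1, other minimums of RPKM or reads, summed transcripts, the same transcript only, centred ratios, and genes listed in either file. The recovery of reads was tested on simulated data. The software was Biopython 1.88, matplotlib 3.10.9, scipy 1.17.1, pandas 2.3.3 and numpy 2.4.6 under Python 3.11.15.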

Additional observations from a re-analysis of the deposited data

Results flagged for a closer look

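Some ratios with cycloheximide and without it had opposite signs. Listed here are gene lists whose median was at least 0.2 in size in either series, and named mRNAs past 2-fold with the drug whose ratio was at least 0.2 in size without it, limits chosen after seeing the data. The difference between the series was not tested, since each condition had 1 library. Of 81 named mRNAs past 2-fold with cycloheximide and with a value without it, 14 had the opposite sign there. Of the gene lists, immediate early genes had medians of 0.24 with and -0.12 without the drug, heat shock chaperones -0.20 and 0.32, leucine handling -0.04 and 0.33, replication and mitosis -0.07 and 0.22, and initiation and elongation factors outside the TOP list -0.22 and 0.03. Of single mRNAs, the transporter SLC38A2 had -1.81 and 0.30, the lysosomal transporter SPNS1 1.83 and -0.51, and the actin bundler PLS3 -1.83 and 0.35. The mitochondrial ribosomal proteins MRPS26 and MRPL4 had 1.17 and -0.62 and 1.04 and -0.53, and ATP6V1H, a subunit of the vacuolar ATPase, -1.11 and 0.58.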

How the results depend on the processing

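No paired analysis was possible because each condition had 1 library. All ratios of single named mRNAs kept their sign under every alternative that gave them a value, except BCAT1 (-0.05) and ARG2 (-0.12) when centred. Of 268 recomputed counts, medians and correlations 249 stayed within their limits, as did 1036 of 1088 ratios of single mRNAs. The limits were intervals over mRNAs for medians and correlations, a fixed fold for counts, and counting intervals or a fixed band for single mRNAs. Intervals of short lists are wide, and the immediate early median below stayed within its own despite its change of sign. Some values cannot change, such as a rank correlation under centring, so this tally does not measure robustness. At a minimum mean RPKM of 50, 216 mRNAs were at least 2-fold higher in Leu- and 98 in Arg-, the median of all was 0.22, and the rho was 0.00 with the arginine share and -0.24 with coding length. There the medians of immediate early genes (-0.25), glycolysis (-0.16), chaperonin and tubulin (-0.07), arginine handling (0.09) and the stress response (0.05) had the opposite sign. With no minimum the median was 0.08 and these rho were 0.12 and -0.40. Centring on the median left 215 mRNAs higher in Leu- and 415 in Arg-, a median of 0.00, and 0.12 for mitochondrial ribosomal proteins. With at least 2 times 64 reads in both libraries, 208 mRNAs were higher in Leu- and 231 in Arg-, which turned the excess, the median of ER folding genes was -0.04, the median of all was 0.09, the rho was -0.04 with the leucine share and -0.40 with coding length, and 0.46 between the series. Counting unlisted genes as 0 gave 619 mRNAs higher in Leu-, a median of 0.15 and a rho with coding length of -0.39. The medians of 40S and 60S ribosomal proteins ranged from -0.65 to -0.47 and from -0.64 to -0.48, and that of tRNA synthetases from -0.68 to -0.52. mRNAs under 64 reads are not listed, and 133 of the 357 mRNAs higher in Leu- had under 2 times 64 reads in a library.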

Other observations

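Transcripts listed in a single library could not be compared. Of genes with a listed transcript, 999 were listed in Leu- and not in Arg-, and 124 in Arg- and not in Leu-. Transcripts under 64 reads are not listed, so that absence from the other library is a bound and not a zero. ASGR1, the asialoglycoprotein receptor subunit, was the named gene with the highest value in Leu- alone, with an RPKM of 322 from 1564 reads, where 64 reads in Arg- would have been 16.9. It had 114 in Suff, and without cycloheximide 6.86 in Leu- and 11.3 in Arg-. In Arg- alone the highest named gene was CDK2, with 131 from 77 reads, where 64 reads in Leu- would have been 85.0.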
